A study of Mus musculus with 9 samples.

Results

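The genes described here encode cullins and the proteins that bring substrates to them, chosen by name. Every gene of the count table whose mouse symbol is Cul, Fbxo, Fbxl, Fbxw, Klhl or Kctd followed by a number, with a letter a or b allowed for cullins, was taken. This gave 143 of 49315 gene IDs, of which 8 are cullins, 36 Fbxo, 18 Fbxl, 24 Fbxw, 36 Klhl and 21 Kctd genes. The symbol of 345 IDs was not known, so these could not be matched. PolyA-selected RNA of whole brain was sequenced from 5 young mice aged 3 months and 4 old mice aged 33 months. All were wild-type (WT) C57BL/6J males, and the labels name no treatment. Replicate numbers are those of the labels, so the old mice are replicates 1, 3, 4 and 5, and 1 further column of each table matched no sample and was left out. The paper describes biological replicates and RNA from individual brains, and libraries of the same age differed by more than counting error.

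Cullins are elongated scaffolds. At the C-terminal end a cullin holds a RING protein, Rbx1 or Rnf7, which recruits the ubiquitin-loaded E2 enzyme, and at the N-terminal end it docks an adaptor that carries the substrate. Cul1 takes F-box proteins through Skp1, and F-box genes are named by the rest of the protein, Fbxw for WD40 repeats, Fbxl for leucine-rich repeats and Fbxo for other domains. Cul3 takes proteins with a BTB domain directly, among them the Kelch repeat proteins of the Klhl family and many Kctd proteins. Attachment of the ubiquitin-like protein Nedd8 switches the ligase on, the COP9 signalosome removes Nedd8, and Cand1 lets a free cullin exchange its adaptor. In brain, these ligases are known for turning over synaptic, cytoskeletal and circadian proteins.

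The libraries held between 14229259 and 21150439 counts on genes, and 18492 genes passed the filter on low counts and were tested, 122 of the 143 members among them. Levels of a gene across mice are given as CPM, its counts relative to the library total after TMM scaling. Levels of genes against each other are given as TPM, which also divides by gene length. A gene was called when its adjusted p was under 0.05. Of marker lists for the tissue, all 5 genes each for neurons, astrocytes and oligodendrocytes were detected, and their summed levels overlapped between the ages. Within these lists, 2 neuron genes were called lower (*Stmn2* and *Tubb3*), 1 oligodendrocyte gene higher (*Mbp*) and 1 lower (*Mog*). Summed levels did not overlap for reactive astrocytes (4 of 4 genes called higher, 278 to 722 CPM in young and 866 to 1139 in old mice), endothelium (3 of 4 called higher, 161 to 169 and 190 to 233), blood (5 of 5 called higher, 86.1 to 116 and 128 to 409) and oligodendrocyte precursors (1 of 3 called lower, 108 to 117 and 92.9 to 99.7). The microglia marker *Tmem119* was called higher, and of activated microglia markers 1 of 5 was (*Gpnmb*).

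The library of young 4 stood apart from the other young mice in these markers. It had 722 CPM of reactive astrocyte markers (others 278 to 319) and 57.6 of activated microglia markers (others 16.8 to 20.7). Without it 9 of 121 tested members were called (7.44%, against 10.7% of all genes tested in that fit; with it also 9, against 11.0% of all genes), but *Cul3* and *Fbxo21* were lost and *Kctd10* and *Klhl3* joined. In whole tissue, fewer cells of a type and less RNA per cell cannot be told apart. The part of these cell types in the values below was not tested.

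Of the 122 tested members, 9 were called (7.38%), against 11.0% of all tested genes. Higher in old brain were 3 members, *Fbxw23*, *Fbxw15* and *Fbxo21*, where 6.20% of all genes were called higher. Lower were 6, *Klhl1*, *Kctd15*, *Klhl5*, *Fbxo45*, *Cul2* and *Cul3*, where 4.83% of all genes were. An absolute log2 fold change over 0.58 was also passed by 3 of them (2.46%), *Fbxw23*, *Fbxw15* and *Klhl1*, against 2.68% of all genes. An unadjusted p under 0.05 was reached by 32 members (26.2%) and by 26.0% of all genes. These shares of members lie near or under the background. On log2(TPM + 1), 2 members were higher and 1 lower, *Fbxw23*, *Fbxw15* and *Klhl1*, and the other 6 were not called (limma adjusted p from 0.231 for *Kctd15* to 0.915 for *Fbxo21*). On that scale fewer genes were called in general, 3.21% of all tested genes and 2.46% of members.

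Most members differed little between the ages. The median log2 fold change, old minus young, was -0.020 over members and -9.2e-05 over all tested genes, and the median absolute value was 0.094 and 0.11. On log2(TPM + 1) the median of all genes was -0.14, so that a difference on that scale is read relative to this shift. An absolute value under 0.2 was found for 104 members (85.2%) and for 70.8% of all genes. The 95% interval of the difference lay inside 0.58 in either direction for 107 members (87.7%) and for 73.8% of all genes, with a median standard error of 0.056 and 0.084. Members were also higher in level than the tested genes together, with a median of 19.5 and 10.2 TPM.

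**Figure D1:**
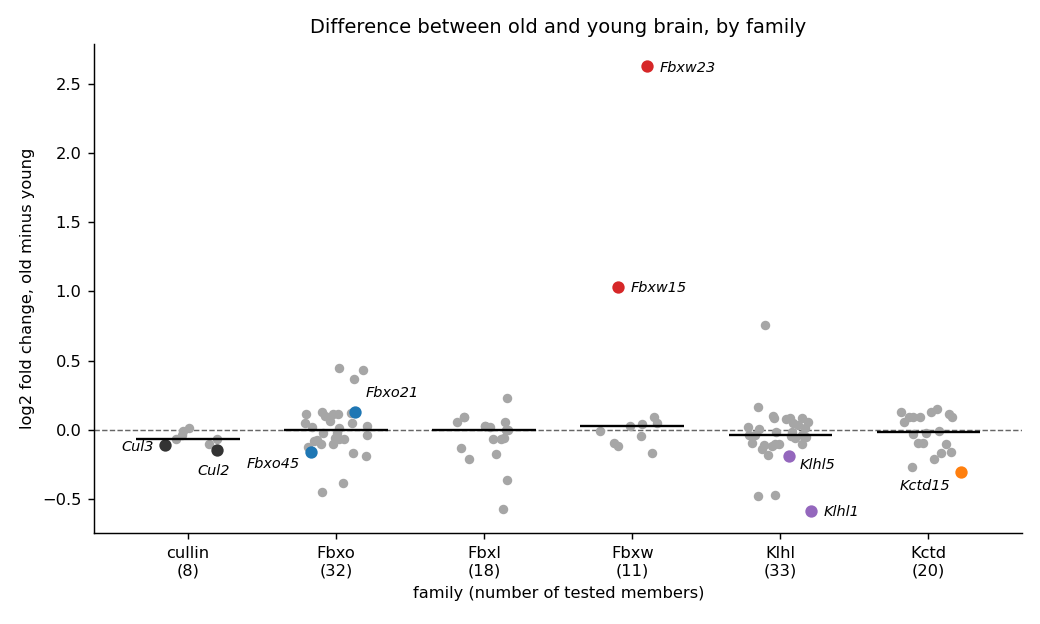
Log2 fold change, old minus young, of the 122 tested members (vertical axis) by family (horizontal axis, with the number tested). Coloured points are the 9 called members, grey points the others, black bars the family medians and the dashed line the median of all tested genes. The medians run from -0.065 for cullins to 0.031 for Fbxw. For Fbxw it was -0.022 without the filter on low counts and -0.14 on log2(TPM + 1), where the median of all genes was also -0.14. *Fbxw23* at 2.63 and *Fbxw15* at 1.03 stand above all other members.

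All 8 cullin genes were tested. *Cul2*, the scaffold of the von Hippel-Lindau ligase, and *Cul3*, the scaffold for BTB adaptors, were lower in old brain. Of the 8 log2 fold changes 7 were below 0, where 9249 of all 18492 tested genes were. *Cul2* measured 53.9, 55.9, 55.6, 53.3 and 56.5 CPM in the young mice and 50.2, 51.8, 49.7 and 47.6 in the old. The ages did not overlap, and the level fell by 9.48% (log2 -0.14 ± 0.040 SE, edgeR adjusted p = 0.0351). *Cul3* measured 145, 135, 136, 140 and 145 CPM in the young mice and 130, 129, 130 and 129 in the old. The lowest young mouse lay above the highest old one, and the level fell by 7.52% (log2 -0.11 ± 0.034 SE, edgeR adjusted p = 0.0481).

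Both cullin calls lie near the threshold. Of 9 leave-one-out fits, each without a different mouse, *Cul2* was called in 2 and *Cul3* in 1. *Cul2* was called without young 4 (adjusted p = 0.0359) and old 3 (0.0328) and lost without each of the other mice, up to 0.106 without old 5 (edgeR). *Cul3* was called only without young 2 (0.0388), and its highest value was 0.117 without young 5 (edgeR). Without the filter on low counts *Cul3* was not called (adjusted p = 0.0736, edgeR).

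The other cullins did not pass the test. *Cul7*, which pairs with Fbxw8, had a log2 difference of -0.11 (95% interval -0.21 to 0.0042, edgeR adjusted p = 0.257). The paralogs *Cul4a* and *Cul4b*, which dock Ddb1 and its receptors, had -0.066 and -0.065, with means of 64.7 ± 2.23 (SD, n = 5) and 61.8 ± 0.670 CPM (n = 4) for *Cul4a* and 43.7 ± 2.04 and 41.8 ± 2.18 for *Cul4b*. *Cul9*, a cytoplasmic partner of p53, had -0.040, *Cul5*, the scaffold for SOCS box proteins, -0.011, and *Cul1*, the scaffold for F-box proteins, 0.012 (95% interval -0.058 to 0.082). For *Cul1* the old mice ranged from 108 to 118 CPM and the young from 110 to 115, so that the ages overlapped. All 8 intervals lay inside 0.58 in either direction, and no cullin reached an absolute value of 0.2.

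Per transcript length, *Cul1* at 69.8 TPM and *Cul3* at 69.2 were the highest cullins over the 9 mice. *Cul1* was above *Cul3* in 6 of 9 mice, so these neighbours are not separated. *Cul2* followed at 31.8, *Cul4b* at 27.6 and *Cul4a* at 24.7 TPM, in that order in 9 of 9 mice. *Cul5* at 22.1 and *Cul9* at 22.0 were not separated, *Cul5* being the higher in 2 of 9 mice, and *Cul7* was the lowest at 14.8 TPM in 9 of 9.

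**Figure D2:**
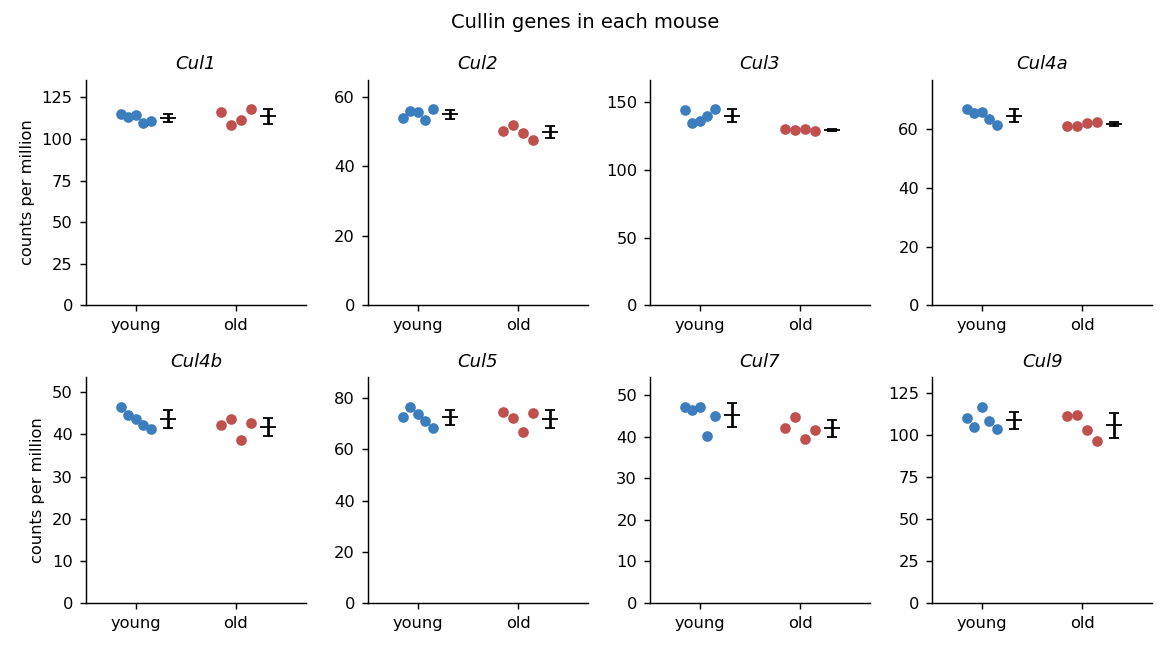
CPM (vertical axes, starting at 0) of the 8 cullin genes in each mouse, young in blue (n = 5) and old in red (n = 4), with the mean ± SD beside the points. The ages are separate for *Cul2* and *Cul3* and overlap in the other 6.

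The WD40 F-box genes held the 2 largest rises of the members and 13 of the 21 members with too few counts to be tested. Of 24 Fbxw genes, 11 were tested and 2 called, both higher, with a family median of 0.031. It was -0.022 without the filter on low counts and -0.14 on log2(TPM + 1), where the median of all genes was also -0.14. *Fbxw23* and *Fbxw15* are neighbours in a cluster of 15 Fbxw genes on mouse chromosome 9 (GRCm38, 109139447 to 109790670), a family that has expanded in rodents and is known from oocytes. *Fbxw15*, a protein-coding gene, lies at 109552602 to 109568262 and *Fbxw23*, annotated as a transcribed unprocessed pseudogene, at 109516388 to 109534858, both on the minus strand and 17743 bases apart.

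*Fbxw23* had 15, 20, 8, 9 and 12 counts in the young mice and 79, 51, 89 and 90 in the old. This is 0.784, 1.11, 0.550, 0.435 and 0.741 CPM in young and 4.20, 3.60, 4.87 and 5.28 in old brain. The lowest old mouse lay more than 2 CPM above the highest young one, a rise of 6.18-fold (log2 2.63 ± 0.22 SE, edgeR adjusted p = 1.47e-05). *Fbxw15* had 1.31, 2.43, 1.86, 1.88 and 2.22 CPM in the young mice and 3.98, 3.67, 4.43 and 3.76 in the old. The ages were again separate, with a rise of 2.05-fold (log2 1.03 ± 0.17 SE, edgeR adjusted p = 0.00194). Both were called in all 9 leave-one-out fits, with highest adjusted p of 1.4e-04 for *Fbxw23* and 0.0062 for *Fbxw15* (edgeR).

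The genes between them rose as well. *Gm42756*, an antisense transcript on the plus strand, had 4.69 to 5.44 CPM in young and 9.33 to 11.2 in old mice (log2 0.99 ± 0.091 SE). *Gm43089*, a processed pseudogene, had 0.209 to 0.556 and 1.64 to 2.64 CPM (log2 2.41 ± 0.27 SE). These 4 are consecutive, and of the 16 other genes tested within 600 kb on either side 1 was called, *Shisa5* at 0.15 (edgeR adjusted p = 0.0426), the others lying between -0.32 and 0.15.

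These 4 genes are not 4 independent measurements. *Gm43089* lies inside the extent that RefSeq gives *Fbxw23* (109516398 to 109543189). *Fbxw15* shares 168 of its 1495 exon bases with *Gm42756* on the other strand, and whether reads were counted by strand is not given in the sources used here for these libraries. Their part in the *Fbxw15* values was not tested.

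**Figure D3:**
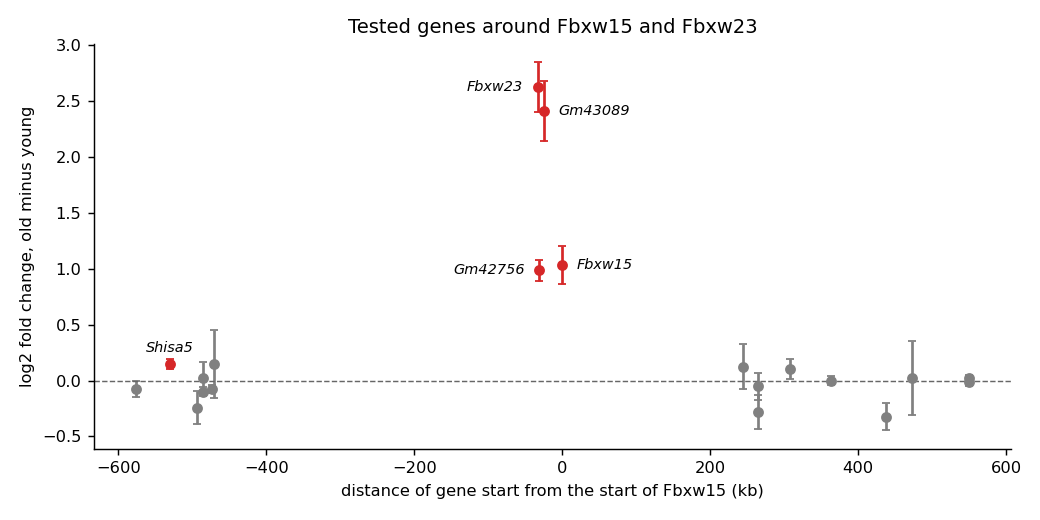
Log2 fold change, old minus young, with its standard error (vertical axis) of the 20 tested genes within 600 kb of *Fbxw15*, by the distance of each gene's start from that of *Fbxw15* in kb (horizontal axis). Called genes are red and the others grey. The 4 consecutive genes from *Fbxw23* to *Fbxw15* lie between 0.99 and 2.63, and no other gene exceeds 0.15.

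The other 13 Fbxw genes of the cluster were not tested, with at most 6 counts each over the 9 mice and 5 of them with none. Members of the cluster are close copies, and reads that mapped to more than 1 place were left out of the authors' counts, so low counts here are uncertain. The annotated transcript of *Fbxw15* was 65.2% to 89.1% identical to those of the other 14 genes, and that of *Fbxw23* 67.5% to 94.5%, the highest with *Fbxw16*, which had no counts. *Fbxw15* and *Fbxw23* were 81.3% identical over 1356 aligned bases. Of a list of 4 germ cell markers, 2 were tested and none called (edgeR, both unadjusted p over 0.05), with -0.43 for *Ddx4* and -0.39 for *Dazl*, and the oocyte gene *Oosp1* had 0 CPM in all young mice and at most 0.0587 in an old one.

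Since the neighbours moved together, their promoters are shown, from RefSeq on GRCm38.p6, 250 bases before to 50 after each annotated start, 5′ to 3′ on the minus strand. RefSeq places the start of *Fbxw23* at 109543189, not at 109534858 as in the position given above. Capitals mark CCAAT on either strand, and no other motif searched was found. The windows are chr9:109543140-109543439 for *Fbxw23* and chr9:109568213-109568512 for *Fbxw15*.
Fbxw23: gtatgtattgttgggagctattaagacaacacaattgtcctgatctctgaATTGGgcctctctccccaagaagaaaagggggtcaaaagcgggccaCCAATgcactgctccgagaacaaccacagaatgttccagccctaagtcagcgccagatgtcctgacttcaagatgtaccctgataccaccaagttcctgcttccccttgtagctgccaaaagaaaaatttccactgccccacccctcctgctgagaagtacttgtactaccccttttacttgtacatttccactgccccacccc
Fbxw15: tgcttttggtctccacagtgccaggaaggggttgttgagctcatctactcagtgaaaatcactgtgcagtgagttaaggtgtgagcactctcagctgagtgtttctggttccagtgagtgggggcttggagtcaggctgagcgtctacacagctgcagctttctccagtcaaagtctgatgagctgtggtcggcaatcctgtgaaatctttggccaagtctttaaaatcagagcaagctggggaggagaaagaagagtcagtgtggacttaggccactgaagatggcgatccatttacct

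The promoters were 56.9% identical over 262 aligned bases. On both strands, the *Fbxw23* window held CCAAT at 2 places, starting at bases 51 and 97, and the *Fbxw15* window held none, where 37.4% of 32817 promoters of the same length hold it. The core of the interferon-stimulated response element, which is GAAA followed after any 2 bases by GAAA (in 3.43% of promoters), CACGTG (the E-box, 7.15%), TGACG (a core of the cAMP response element, 20.8%), GGGCGG (the GC box, 35.6%) and TATAAA (the TATA box, 13.6%) were in neither window. A match or its absence describes these letters only.

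The other 9 tested Fbxw genes were between -0.17 and 0.091 and none passed the test by edgeR or DESeq2, 3 having an unadjusted p under 0.05. *Fbxw11*, the beta-TrCP paralog that recognises phosphorylated beta-catenin and IkB, was the highest of the family at 89.5 TPM. It had 154 ± 2.63 CPM in young (SD, n = 5) and 157 ± 11.8 in old brain (n = 4), where old 1 had 172 and old 4 had 162, above every young mouse. *Fbxw5* at 60.5 TPM had a log2 difference of -0.12 (edgeR adjusted p = 0.103), and was called without old 1 (0.0397) but in no other leave-one-out fit. *Fbxw7*, which targets cyclin E, Myc and Notch, had 154 to 171 CPM in young and 151 to 157 in old mice (log2 -0.096 ± 0.038 SE, edgeR adjusted p = 0.127).

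Of 36 Fbxo genes, 32 were tested, 1 was called higher and 1 lower, and the median was -0.0019. *Fbxo45*, which works with the ligase Mycbp2 at synapses, was lower. It had 60.7, 58.0, 62.7, 60.4 and 60.4 CPM in the young mice and 56.2, 53.2, 52.5 and 54.4 in the old. The ages did not overlap, and the level fell by 10.4% (log2 -0.16 ± 0.039 SE, edgeR adjusted p = 0.0190), lost only without old 4 (0.0537) among the leave-one-out fits.

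*Fbxo21*, an adaptor for the transcriptional regulator Eid1, was higher. It had 139, 144, 145, 132 and 130 CPM in the young mice and 154, 151, 149 and 149 in the old. Every old mouse was above every young one, with a difference of 9.43% (log2 0.13 ± 0.040 SE, edgeR adjusted p = 0.0498). This call lies at the threshold and was held in 2 of 9 leave-one-out fits, those without young 2 (0.0337) and young 3 (0.0443), and lost in the other 7, up to 0.102 (edgeR). With DESeq2's size factors it just missed the threshold (adjusted p = 0.0513, edgeR). On log2(TPM + 1) its difference was -0.034, where the median of all genes was -0.14.

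A group of 5 F-box genes, *Fbxo2*, whose protein binds high-mannose glycoproteins, and its relatives, had no called gene by edgeR or DESeq2. Of these, 2 had an unadjusted p under 0.05, and the log2 differences were from -0.025 to 0.45. *Fbxo2*, the neuron-enriched member of the group and the highest Fbxo gene at 164 TPM, had 75.3 to 85.6 CPM in young and 84.9 to 91.3 in old mice (log2 0.10 ± 0.045 SE, edgeR adjusted p = 0.168). *Fbxo17* had 3.29, 2.93, 2.68, 3.04 and 1.98 CPM in young and 4.57, 3.60, 3.56 and 3.52 in old mice. These did not overlap, and the test was not passed (log2 0.45 ± 0.16 SE, edgeR adjusted p = 0.0897). *Fbxo6*, *Fbxo27* and *Fbxo44* had log2 differences of 0.11, 0.021 and -0.025.

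*Fbxo7*, a gene of familial parkinsonism that also acts in proteasome assembly, had 48.6, 47.4, 51.4, 49.3 and 48.4 CPM in the young mice and 52.2, 53.1, 53.2 and 53.9 in the old. The ages were separate and the gene was not called (log2 0.12 ± 0.039 SE, edgeR adjusted p = 0.0730). *Fbxo11*, an adaptor for Bcl6 and the other most abundant Fbxo gene at 75.8 TPM, had a log2 difference of 0.051 (95% interval -0.015 to 0.12). *Fbxo9*, named after its values were seen, had a log2 difference of -0.12 (edgeR adjusted p = 0.117) and was called without old 4 (0.0231). *Fbxo32*, the muscle atrophy adaptor atrogin-1, had 28.5 ± 2.44 CPM in young (SD, n = 5) and 31.2 ± 2.80 in old brain (n = 4, edgeR adjusted p = 0.283).

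All 18 Fbxl genes were tested, none was called by edgeR or by DESeq2's Wald test, and 5 had an unadjusted p under 0.05 (edgeR). The median was 0.0011 and the range -0.57 to 0.23. The lowest value belonged to *Fbxl22*, named after its values were seen, which had 2.77, 1.88, 2.47, 3.19 and 3.46 CPM in the young mice and 1.75, 1.41, 1.92 and 2.29 in the old. Young 2 lay within the old range (log2 -0.57 ± 0.20 SE, edgeR adjusted p = 0.0842), and without it the gene was called (0.0341). It shares exon bases with *Herc1* on the opposite strand. *Fbxl16* had the highest level of all members at 408 TPM. It measured 530 to 611 CPM in young and 534 to 626 in old mice, a log2 difference of 0.0020 with a 95% interval of -0.096 to 0.10.

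*Fbxl21*, an adaptor for cryptochromes, the repressors of the circadian clock, had 5.99 to 6.94 CPM in young mice and 5.84, 6.49, 6.51 and 3.76 in old mice (log2 -0.17 ± 0.14 SE, edgeR adjusted p = 0.488). Old 5 was the lowest of the 9 mice, and old 3 and old 4 lay among the young.

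Among the BTB adaptors, 33 of 36 Klhl genes were tested and 2 were lower, with a family median of -0.039. *Klhl1*, a brain-enriched actin-binding Kelch protein known from Purkinje cells, fell most. It had 9.67, 8.80, 12.5, 10.3 and 12.5 CPM in the young mice and 7.06, 8.04, 6.95 and 6.51 in the old. The lowest young mouse was above the highest old one, and the level in old brain fell by 33.4% (log2 -0.59 ± 0.12 SE, edgeR adjusted p = 0.00653). It was called in all 9 leave-one-out fits (highest adjusted p = 0.0213, edgeR). Its size lies at the threshold of 0.58, so it passed both thresholds in 4 of those 9, without young 1, young 2, young 4 or old 3.

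Beside *Klhl1*, all 4 genes of a list of cerebellar markers were below 0 and 1 was called, *Calb1* (log2 -0.45, edgeR adjusted p = 0.00882). Their summed level was 414 to 538 CPM in young and 275 to 454 in old mice. The Purkinje cell gene *Pcp2* had 30.4 to 48.0 CPM in young and 18.3 to 42.3 in old mice, so that the ages overlapped. The part of cerebellar tissue in the *Klhl1* difference was not tested.

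*Klhl5* had 51.9, 51.7, 54.6, 48.7 and 50.5 CPM in the young mice and 45.7, 45.8, 42.0 and 46.7 in the old. The ages did not overlap, and the level fell by 12.5% (log2 -0.19 ± 0.047 SE, edgeR adjusted p = 0.0180), a call lost only without old 4 (0.0540) among the leave-one-out fits. The most abundant of the family, *Klhl34* at 60.5 TPM and *Klhl9*, which acts on Aurora B in mitosis, at 58.2 TPM, differed by 0.048 and -0.014.

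*Klhl2* and *Klhl3*, adaptors for the WNK kinases that control ion transport, had log2 differences of 0.053 and 0.16. *Klhl3* had 25.5 to 30.8 CPM in young and 28.5 to 32.8 in old mice and was not called (edgeR adjusted p = 0.118), except without young 4 (0.0310). Of the neuronal Kelch genes beside *Klhl1*, *Klhl20* had -0.10 (95% interval -0.21 to 0.0086) and *Klhl24*, which acts on kainate receptors, 0.033. *Klhl17* was matched to no symbol of the table.

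The Kelch genes of muscle are *Klhl31*, *Klhl40* and *Klhl41*. *Klhl40*, which stabilises thin filament proteins, had 3.45, 5.20, 2.34, 1.64 and 2.16 CPM in the young mice and 5.31, 4.51, 3.99 and 6.22 in the old. Young 2 lay within the old range, and the difference was not called (log2 0.76 ± 0.27 SE, edgeR adjusted p = 0.0839). It was called without young 2 (adjusted p = 0.00956, edgeR) and by DESeq2's Wald test over all mice (adjusted p = 0.0437). Of 4 skeletal muscle markers 2 were tested and *Myh4* was called higher (log2 2.28 ± 0.63 SE, edgeR adjusted p = 0.0325), with a summed level of 3.87 to 8.16 CPM in young and 3.74 to 27.5 in old mice. *Myh4* had 0.247 to 0.679 CPM in young and 2.02, 0.353, 5.53 and 0.704 in old mice. A list of 5 olfactory bulb and immature neuron markers had a summed level of 79.4 to 116 CPM in young and 61.1 to 155 in old mice. This sum was highest in young 2 and old 5, and 1 of the 5 genes was called, lower (*Sox11*). *Klhl41* had at most 0.756 CPM in any mouse (log2 -0.47 ± 0.39 SE, edgeR adjusted p = 0.490), and *Klhl31*, with at most 0.338 CPM, was not tested. The part of muscle or olfactory bulb RNA in the *Klhl40* values was not tested.

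**Figure D4:**
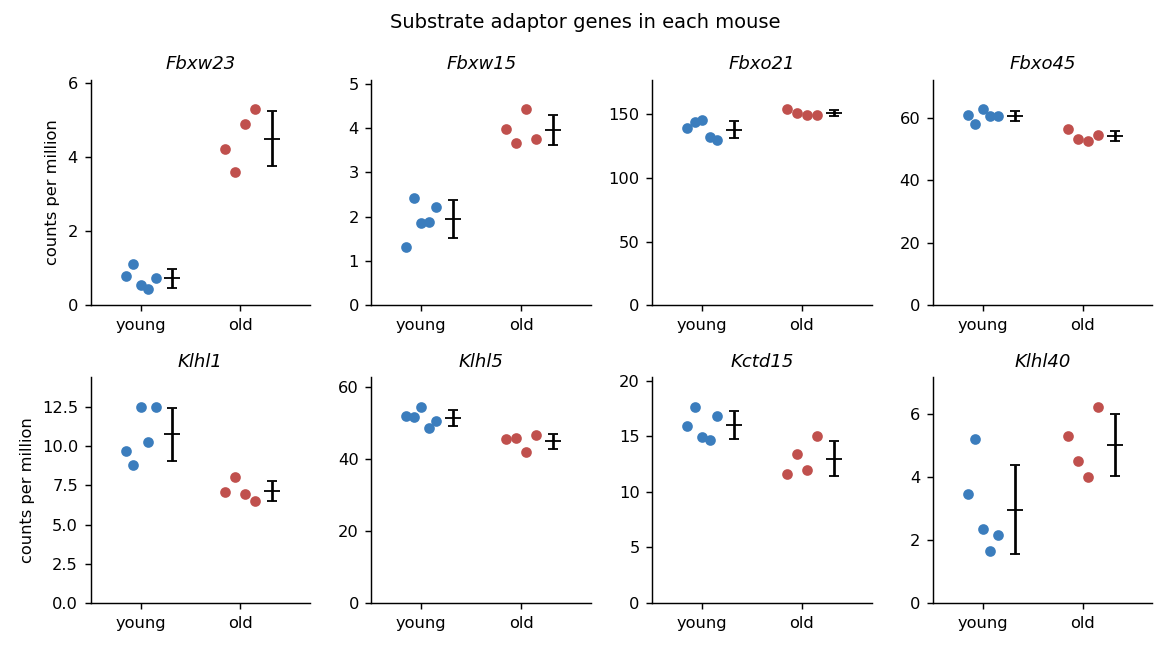
CPM (vertical axes, starting at 0) of 8 adaptor genes in each mouse, young in blue (n = 5) and old in red (n = 4), with the mean ± SD beside the points. The ages are separate for *Fbxw23*, *Fbxw15*, *Fbxo21*, *Fbxo45*, *Klhl1* and *Klhl5* and overlap for *Kctd15* and *Klhl40*.

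Of 21 Kctd genes, 20 were tested and 1 was lower, with a median of -0.013 and all 20 intervals inside 0.58 in either direction. *Kctd15*, an inhibitor of the transcription factor AP-2 in the neural crest, had 15.9, 17.6, 14.9, 14.7 and 16.9 CPM in the young mice and 11.6, 13.4, 11.9 and 15.03 in the old. Old 5 lay among the young mice, and the mean fell by 19.0% (log2 -0.30 ± 0.088 SE, edgeR adjusted p = 0.0402). The call was held in 3 of 9 leave-one-out fits, those without young 3 (0.0472), young 4 (0.0331) or old 5 (0.0158), and the highest value was 0.122 without old 1 (edgeR). It shares exon bases with *Gm12781* on the opposite strand.

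The auxiliary subunits of the GABA-B receptor, *Kctd8*, *Kctd12* and *Kctd16*, which bind the receptor and are not known chiefly as ligase adaptors, had log2 differences of -0.21, -0.092 and -0.27. None was called (edgeR adjusted p = 0.140, 0.262 and 0.103, and none by DESeq2), and 2 had an unadjusted p under 0.05. Their summed level was 71.4 to 77.1 CPM in young and 65.1 to 70.9 in old mice, and these sums did not overlap, while the CPM of each gene did.

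The adaptors for RhoA, a GTPase of the actin cytoskeleton, are *Kctd10* and *Kctd13*. *Kctd13*, at 107 TPM, had 106, 113, 99.3, 98.8 and 99.5 CPM in young and 119, 112, 111 and 111 in old mice. Young 2 lay within the old range (log2 0.13 ± 0.045 SE, edgeR adjusted p = 0.0758), and without it the gene was called (0.0189). *Kctd10* had 32.8 to 38.7 and 38.4 to 40.9 CPM (log2 0.15 ± 0.056 SE, edgeR adjusted p = 0.0971), and was called without young 4 (0.0492). Of the adaptors for G-protein beta-gamma subunits, *Kctd17* had the highest level of the family at 127 TPM and a difference of -0.027, *Kctd2* had 0.092 and *Kctd5* -0.098, none of them called by edgeR or DESeq2 or with an unadjusted p under 0.05.

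CPM of the ages did not overlap for 14 of the 122 tested members (11.5%), where this held for 12.6% of all tested genes. Of these, 7 were higher and 7 lower in old brain, and 8 were called members, all but *Kctd15*. The others were *Fbxo7* and *Fbxo17* above and 4 that were chosen after their values were seen. *Fbxl5*, the iron-sensing adaptor for the iron regulatory protein Ireb2, had 0.096 and *Fbxo38* 0.12, both with higher levels in old brain, and *Kctd20* had -0.11 and *Kctd21*, an adaptor for histone deacetylases, -0.17.

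**Figure D5:**
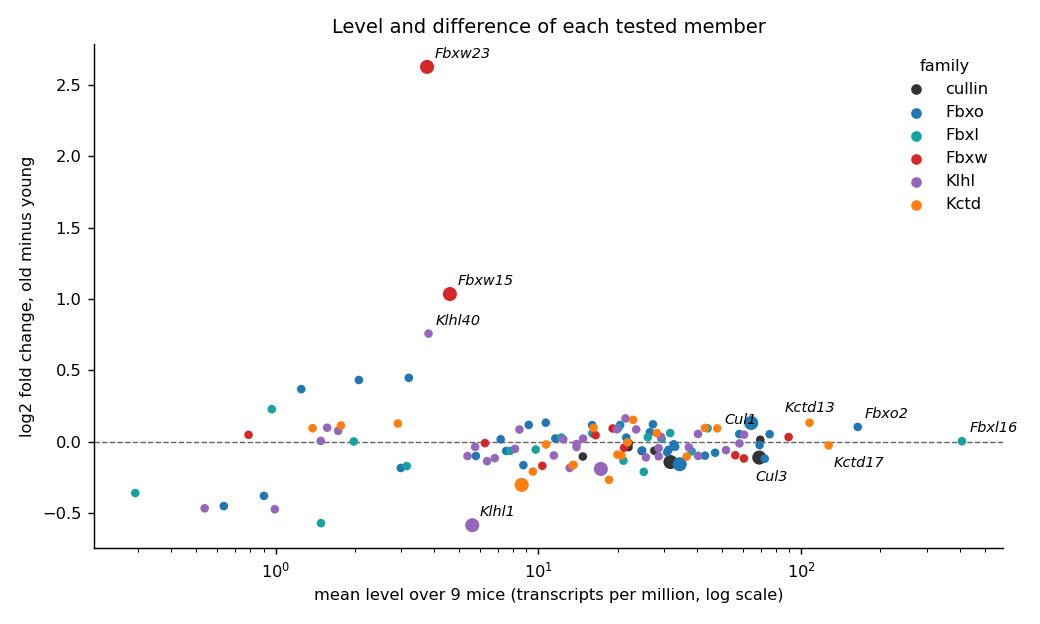
Log2 fold change, old minus young (vertical axis), of the 122 tested members by their mean level over 9 mice in TPM (horizontal axis, log scale), coloured by family, with larger points for called members. *Fbxw23*, *Fbxw15* and *Klhl1*, which passed both thresholds, lie between 3.77 and 5.60 TPM, and *Fbxl16* at 408 TPM lies at 0.0020.

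The 21 members that were not tested held few counts. They are *Fbxo15*, *Fbxo24*, *Fbxo39*, *Fbxo43*, *Kctd19*, *Klhl30*, *Klhl31*, *Klhl38* and the 13 Fbxw genes of the cluster, and the most abundant, *Klhl30*, had 96 counts over the 9 mice. Of the tested members, 33 share exon bases with a gene on the opposite strand and 6 with a gene on the same strand, and their counts may hold reads of that gene.

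The other genes of the pathway were taken from 4 lists, with 97 genes of which 96 were tested and 4 called (4.17%), against 11.0% of all tested genes. The first list held the RING proteins and linkers that complete the ligase (*Rbx1*, *Rnf7*, *Skp1a*, *Elob*, *Eloc* and *Ddb1*) and, beside them, *Glmn*. Of these 7 genes none was called by edgeR or DESeq2 and 1 had an unadjusted p under 0.05. Their median was -0.032 and their range -0.079 to 0.018. Of the genes that attach Nedd8, none of 10 was called by edgeR or DESeq2. An unadjusted p under 0.05 was reached by 3 (26.0% of all tested genes). Of the 10, 9 were below 0 (9249 of all 18492 tested genes were), with a median of -0.081. Their summed level was 610 to 638 CPM in young and 588 to 594 in old mice, without overlap.

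Of 13 genes for the COP9 signalosome, deneddylation and adaptor exchange, 12 were below 0 (9249 of all 18492 tested genes were) and 1 was called. Their summed level was 812 to 830 CPM in young and 787 to 807 in old mice, also without overlap. The sums of the RING and linker list and of the other substrate receptors overlapped between the ages. *Gps1*, subunit 1 of the signalosome, had 93.6, 98.0, 95.9, 90.9 and 97.0 CPM in young and 86.5, 80.1, 87.2 and 85.8 in old mice. The ages did not overlap (log2 -0.16 ± 0.038 SE, edgeR adjusted p = 0.0160). *Cops5*, the subunit that cuts Nedd8 from the cullin, had a log2 difference of 0.0051 and *Cand1* of -0.044.

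Of 66 tested substrate receptors outside the name pattern, 1 was higher and 2 were lower, with a median of -0.035 (5 called by DESeq2). *Socs3*, the feedback inhibitor of cytokine receptors that joins Cul5, had 2.82, 3.04, 2.06, 2.99 and 2.66 CPM in young and 4.89, 4.51, 4.43 and 4.17 in old mice. It rose in every old mouse above every young one (log2 0.72 ± 0.14 SE, edgeR adjusted p = 0.00487). *Zyg11b*, a Cul2 receptor for N-terminal glycine degrons, had 229 to 240 CPM in young and 197 to 217 in old mice (log2 -0.20 ± 0.037 SE, edgeR adjusted p = 0.00413). *Klhdc10*, a Cul2 receptor for C-terminal degrons, had 134 to 143 and 121 to 131 CPM (log2 -0.15 ± 0.035 SE, edgeR adjusted p = 0.0169), a call lost without old 5 (0.0571). The ages did not overlap for *Zyg11b* and *Klhdc10*. *Vhl* (log2 -0.035), *Zer1* (-0.034) and *Klhdc2* (-0.043), which also join Cul2, overlapped between the ages and were not called. On log2(TPM + 1) none of the 4 called pathway genes passed the test (limma adjusted p from 0.163 for *Socs3* to 0.403 for *Klhdc10*), where 3.21% of all genes did.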

How the data were processed

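Whole brain of 5 young and 4 old mice was profiled by RNA-seq. According to the methods, the authors used STAR for alignment to GRCm38 after trimming, and featureCounts for the number of uniquely mapped exon reads of each gene. The deposited count table holds these whole numbers, not normalized. The deposited TPM values were made by the authors with gene lengths that are not given in the sources used here. A deposited table of normalized counts was not used, and 1 column of per-sample values in each table matched no sample and entered no step.

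From the counts, genes were kept with filterByExpr (minimum count 10, minimum total count 15), scaled by TMM and tested with edgeR's quasi-likelihood test (edgeR 4.0.16 in R 4.3.3), without covariates, with Benjamini-Hochberg adjustment over all 18492 genes. Standard errors come from the fold change and the test statistic. Intervals are 1.96 standard errors on either side, an approximation that is narrower than the test with so few mice. For *Kctd2* the interval of 0.0052 to 0.18 left out 0 at an unadjusted p of 0.0567 (edgeR). Depth was 14229259 to 21150439 counts, the chi-square per degree of freedom between libraries of an age was at least 4.04, and p-values measure the spread between these mice. On simulated counts of old and young mice with 200 changed genes, the test called 90% of those changed by a log2 of 1 (of 18235 genes), with 9 unchanged genes among 189 calls, and 63% of those changed by 0.5 (of 18180), with 12 among 138. With no gene changed it called 1 of 18244. Symbols and positions came from GENCODE M21 and promoters from RefSeq GRCm38.p6. Transcripts were aligned with Biopython 1.88.

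Named genes are all cullins, members past both thresholds, the 3 largest called rises and falls and the 2 highest TPM of each family, members of role groups, and called genes of the pathway lists, and 1 gene that the rule names is not reported here. Exceptions are marked as chosen after their values were seen. The members and lists were chosen with earlier results of these data known. Alternatives were other size factors, no filter, the Wald test of DESeq2 1.42.0, log2(TPM + 1) in limma 3.58.1, a replicate block, leaving out each mouse, a threshold of 0.01 and, added after seeing the data, robust dispersions.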

Additional observations from a re-analysis of the deposited data

Results flagged for a closer look

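Within an age, the named members were searched for a mouse whose log2 CPM lies far from the others by Dixon's ratio of gap to range, in 88 combinations of gene and age, where chance gives about 1 in 20, or 4.4. This gave 3. *Fbxo17* in old 1 was at 4.57 CPM, with the other old mice at 3.52 to 3.60 (ratio 0.919). *Kctd13* in old 1 was at 119 CPM, with the others at 111 to 112 (ratio 0.8291, just past the limit). *Klhl20* in young 5 was at 25.2 CPM, with the other young mice at 28.9 to 30.0 (ratio 0.774).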

How the results depend on the processing

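*Fbxw23*, *Fbxw15* and *Klhl1* were called under all 17 settings at an adjusted p of 0.05. The number of called members was lowest on log2(TPM + 1), with 3 (2.46%, against 3.21% of all genes tested). It was highest, with 10, under DESeq2's Wald test (8.20%, against 11.5%) and without young 2 (8.20%, against 10.2%). On log2(TPM + 1) the median of all genes moved to -0.14, and the family medians to -0.22 (cullin), -0.16 (Fbxo), -0.14 (Fbxl), -0.14 (Fbxw), -0.19 (Klhl) and -0.17 (Kctd). There 1 member was lower and 0 of the other pathway genes were called (limma, 4 with an unadjusted p under 0.05). The sign turned there for *Cul1* (-0.15), *Fbxo21* (-0.034), *Fbxo2* (-0.064), *Fbxo11* (-0.11), *Fbxl16* (-0.16), *Fbxw11* (-0.14), *Klhl34* (-0.12), *Kctd13* (-0.032), *Fbxo6* (-0.050), *Fbxo27* (-0.14), *Kctd10* (-0.0066), *Kctd2* (-0.071), *Klhl2* (-0.11), *Klhl3* (-4.7e-05), *Klhl24* (-0.13), *Fbxo7* (-0.048) and *Fbxo32* (-0.033). At an adjusted p under 0.01, 1 member was lower and 2 pathway genes were called (edgeR). In all, 2.46% of members and 4.22% of all genes passed it. Without the filter 5 members passed both thresholds, *Klhl30* and *Klhl40* joining, the Fbxw median was -0.022 and *Fbxl16* was -0.0081, and with upper quartile factors *Fbxl16* was -0.0017.

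Samples of the same number did not deviate together (r from -0.12 to 0.17 over 4 pairs, 2 of 4 matching their own number best). With a block for the replicate number, a fit in which young 2 has no partner and adds nothing, 5 members were higher and 4 lower (*Cul2*, *Cul3* and *Kctd15* were not called, *Fbxl22*, *Kctd13* and *Klhl40* were; of the pathway genes *Gps1* and *Klhdc10* were not called), with 5 past both thresholds, a Fbxw median of -0.032 and *Cul5* at 0.0087, and over all genes 1687 calls.

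Leaving out each mouse gave 2 to 5 members lower (2 without old 4, 3 without young 1 or young 5), 2 to 5 higher (5 without young 2) and 2 to 5 past both thresholds (5 without young 2). The share of members called ran from 3.25% (without old 4) to 8.20% (without young 2). That of all genes ran from 7.75% (without old 5) to 10.7% (without young 4). Medians ran from -0.066 to 0.012 (Fbxl), -0.031 to 0.059 (Fbxw) and -0.058 to -0.025 (Klhl). Signs turned within -0.0060 to 0.032 (*Cul1*), -0.028 to 0.024 (*Cul5*), -0.069 to 0.0027 (*Cul9*), -0.042 to 0.032 (*Fbxl16*), -0.029 to 0.086 (*Fbxo27*), -0.011 to 0.060 (*Fbxw11*) and -0.026 to 0.0059 (*Klhl9*). Why these values moved was not tested. Of 831 values of 52 genes named in the text under the alternatives, 738 kept direction and side of the threshold. In the Fbxw cluster 13 genes had too few counts to test, and depth, mapping and expression were not told apart there.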
